A study of Mus musculus with 24 samples.

Results

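The genes described here are the Wnt ligands, their receptors and their modulators in mouse muscle cells treated with bone morphogenetic protein 4 (BMP4). They were taken by gene symbol from a fixed pattern of family names, with 1 probe set per gene, and 59 genes of 19938 measured genes matched, through 60 probe sets. The pattern uses gene names alone. The members comprise 19 ligands, 7 R-spondins and R-spondin receptors, 14 Wnt receptors and coreceptors, 10 secreted antagonists, 6 receptor ligases and cytoplasmic inhibitors, and 3 transcription factors. Tcf7 was not among the probe sets with 1 gene symbol and was not analysed here, and Frzb, an Sfrp relative whose symbol lies outside the pattern, is given with the other pathway genes.

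RNA was measured on 24 arrays in 8 groups of 3, formed by genotype, stage and treatment. The genotypes were a wild-type H-2Kb-tsA58 line and a MuSK-/- (MuSK-null) line, both immortalised, so that a difference between genotypes is also a difference between 2 lines. In such cells the interferon-responsive H-2Kb promoter drives a temperature-sensitive large T antigen, and myoblasts were grown with interferon at 33 °C. Myotubes had been kept for 3 days at 37 °C in a horse serum medium, so stage cannot be told apart from temperature and medium. Treated cells received 25 ng/ml BMP4 for 8 h. Treated myoblasts had first been deprived of serum for 4 h, treated myotubes had not, and nothing is said of serum for untreated myoblasts, so serum and BMP4 cannot be told apart in the myoblast responses. Samples within a group are called biological replicates in the labels, with no word on what was separate between them. In bulk RNA, fewer cells of a type and less RNA per cell cannot be told apart.

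Wnts are secreted lipid-modified proteins that bind Frizzled receptors together with the coreceptors Lrp5 and Lrp6, which stabilises beta-catenin and turns on genes through TCF/LEF factors, or with Ror receptors in branches that do not use beta-catenin. R-spondins bind Lgr receptors and protect Frizzleds from the ubiquitin ligases Znrf3 and Rnf43, while Sfrp, Dkk, Wif1 and Notum proteins act against Wnts outside the cell and Axin and Nkd proteins inside it. In muscle, Wnts act on progenitor commitment, fusion and the neuromuscular synapse, and MuSK itself, a receptor tyrosine kinase of that synapse, has a Frizzled-like cysteine-rich domain that binds Wnt11 among others.

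Upstream sequences were read from RefSeq (GRCm38.p6) for the members that rose after BMP4 in all 4 kinds of cells, and for Wnt11. A window was found for 39 of the 59 members, and for 5 of the 7 that rose everywhere; Lrp6 and Rspo3 are named only. Each line gives the 250 bases before the first annotated start, 5′ to 3′ on the gene's strand, with matches to GGCGCC, an element bound by BMP-activated Smads, or to CTTTGA, the core of TCF/LEF sites, in capitals; both strands were searched, and the motifs did not overlap.
Lgr6 (chr1:135105277-135105526, minus strand): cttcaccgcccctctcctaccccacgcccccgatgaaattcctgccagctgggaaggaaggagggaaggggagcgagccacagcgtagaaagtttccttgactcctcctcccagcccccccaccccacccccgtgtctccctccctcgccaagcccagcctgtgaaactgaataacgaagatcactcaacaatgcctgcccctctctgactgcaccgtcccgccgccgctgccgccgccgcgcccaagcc
Lgr4 (chr2:109917397-109917646, plus strand): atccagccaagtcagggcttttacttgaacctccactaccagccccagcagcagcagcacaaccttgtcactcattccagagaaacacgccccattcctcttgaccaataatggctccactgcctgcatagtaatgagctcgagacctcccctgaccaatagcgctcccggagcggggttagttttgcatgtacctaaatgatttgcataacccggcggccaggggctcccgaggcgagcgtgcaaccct
Wnt2 (chr6:18030446-18030695, minus strand): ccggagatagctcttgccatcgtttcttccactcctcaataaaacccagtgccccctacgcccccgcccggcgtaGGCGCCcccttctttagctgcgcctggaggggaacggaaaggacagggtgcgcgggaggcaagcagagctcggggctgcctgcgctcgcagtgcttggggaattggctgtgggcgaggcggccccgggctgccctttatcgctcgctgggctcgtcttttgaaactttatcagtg
Fzd1 (chr5:4758217-4758466, minus strand): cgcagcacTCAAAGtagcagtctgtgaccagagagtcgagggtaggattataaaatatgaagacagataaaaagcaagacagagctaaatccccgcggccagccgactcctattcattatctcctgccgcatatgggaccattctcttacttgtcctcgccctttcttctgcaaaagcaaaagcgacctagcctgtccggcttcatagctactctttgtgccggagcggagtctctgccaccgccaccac
Lef1 (chr3:131110047-131110296, plus strand): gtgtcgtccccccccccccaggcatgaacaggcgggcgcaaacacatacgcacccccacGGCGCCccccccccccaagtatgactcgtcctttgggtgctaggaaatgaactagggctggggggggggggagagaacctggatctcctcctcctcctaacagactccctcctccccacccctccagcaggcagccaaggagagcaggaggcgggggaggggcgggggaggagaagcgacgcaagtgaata
Wnt11 (chr7:98834862-98835111, plus strand): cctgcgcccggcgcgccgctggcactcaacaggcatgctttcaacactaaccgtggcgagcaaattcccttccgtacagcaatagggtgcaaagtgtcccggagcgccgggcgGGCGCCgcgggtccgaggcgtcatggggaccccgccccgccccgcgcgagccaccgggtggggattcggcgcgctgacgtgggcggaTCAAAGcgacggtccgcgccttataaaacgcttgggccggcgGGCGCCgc
In these windows GGCGCC lay 175 bases upstream of the Wnt2 start, 191 upstream of the Lef1 start, and 137 and 8 bases upstream of the Wnt11 start. CTTTGA began 242 bases upstream of the Fzd1 start and 50 upstream of the Wnt11 start, and neither run of letters was found upstream of Lgr6 or Lgr4. Lef1 has 4 annotated windows and Wnt11 has 2, of which the first is shown. Of the Lef1 windows not shown, window 4 held CTTTGA 180 and 120 bases upstream of its own start. Window 2 of Lef1 overlapped the window shown, and its GGCGCC, 217 bases upstream of its own start, was the same site as in the window shown. Counting any window, 13 of 39 members (33.3%) held GGCGCC against 10.8% of 27025 genes, and 6 of 39 (15.4%) held CTTTGA against 15.8%. The members' windows were richer in G and C, with a median of 66.4% against 52.4% over all windows, and the part of base composition in the GGCGCC share was not tested.

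Values are log2 signals on 1 scale for all arrays (array medians from 7.38 to 7.50), so a difference of 1 is a doubling, and signals of different genes are not compared with each other. The number of arrays limits precision, with a median within-group SD of 0.12 log2 units for the members and 0.11 for all genes. No detection call was used, so a low, flat probe set may be at background, and 3 members (Wnt1, Wnt7a and Wnt8b) had means below 6.34, the lower quartile of gene means. Musk ranged from 11.50 to 11.63 in untreated wild-type and 10.69 to 10.94 in untreated MuSK-null myoblasts, and from 12.69 to 12.76 and 11.17 to 11.24 in myotubes. Musk was lower in MuSK-null cells but not near the bottom of the scale there, so the probe set checks the labels in part only. The BMP target Id1 rose in all 4 kinds of cells, by 2.44, 0.99, 2.05 and 2.19 in wild-type myoblasts, MuSK-null myoblasts, wild-type myotubes and MuSK-null myotubes. Untreated, Id1 read 8.71, 8.66 and 8.62 in wild-type and 10.59, 10.71 and 10.56 in MuSK-null myoblasts. Id2, Id3, Smad6 and Smad7 were also higher in untreated MuSK-null than in untreated wild-type myoblasts. In untreated myotubes Id1 overlapped between the lines, while Id2, Id3 and Smad7 were lower and Smad6 higher in MuSK-null cells. The part of these untreated differences in the members' results was not tested. Muscle markers had mean signals above 9.36 on all arrays (13 of 14 measured), while endothelial, macrophage and Schwann markers stayed at means from 6.02 to 7.21. Of the myoblast arrays, 1 in each group deviated from its group together with the other 3 (correlations of deviations from 0.42 to 0.54 over all genes), and results that change without these 4 arrays are given with both values.

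Many members changed after BMP4 in each kind of cell, more of them upward than downward. In wild-type myoblasts 20 of 59 members rose and 7 fell, a called share of 45.8%, where a call is an adjusted p under 0.05 and 11% of all genes were called (5.21% higher, 5.76% lower). In MuSK-null myoblasts 16 rose and 4 fell (33.9%, against 8.42% of all genes, 3.89% higher and 4.52% lower), in wild-type myotubes 14 rose and 3 fell (28.8%, against 8.77%, 4.4% higher and 4.37% lower), and in MuSK-null myotubes 16 rose and 5 fell (35.6%, against 11.3%, 5.36% higher and 5.9% lower). The members' median change was small, 0.079 in wild-type myoblasts, 0.082 in MuSK-null myoblasts, 0.072 in wild-type and 0.033 in MuSK-null myotubes, against medians over all genes from -0.012 to 0.024. When a change of at least 0.5 was also asked for, 16 members were called in wild-type myoblasts (against 3.74% of all genes), 10 in MuSK-null myoblasts (2.8%), 12 in wild-type myotubes (2.6%) and 10 in MuSK-null myotubes (3.7%). At least 1 of the 4 responses was called for 29 members, and for 21.4% of all genes. Only 3 of the 59 members lay below the lower quartile of gene means, and shares over genes of similar signal were not compared. Lgr6, Lgr4, Rspo3, Wnt2, Fzd1, Lrp6 and Lef1, 7 members, rose in all 4 kinds of cells, which 1.06% of all genes did. Fzd9 alone fell in all 4, as 0.913% of all genes did. In each of these 4 comparisons the treated and untreated arrays of a called member did not overlap. With 3 arrays per group such separation goes largely with a call, and its share among all called genes is not given. It therefore adds no support to the calls. Of 4 osteoblast markers measured (of 7 listed), Sp7 and Alpl rose in both kinds of myoblasts, Sp7, Alpl and Dmp1 in wild-type myotubes, and Sp7 in MuSK-null myotubes. The mean signal of the 4 was 6.74 to 7.06 untreated and 8.04 to 8.26 treated in wild-type myoblasts, 6.08 to 6.30 and 6.90 to 7.11 in MuSK-null myoblasts, 6.57 to 6.70 and 7.78 to 7.85 in wild-type myotubes, and 6.25 to 6.43 and 6.18 to 6.37 in MuSK-null myotubes. Of 13 muscle markers, 2 rose and 6 fell in wild-type myoblasts, 0 rose and 6 fell in MuSK-null myoblasts, and 2 rose and 1 fell in each kind of myotubes. Of 8 fibroblast markers, 1 rose and 1 fell in wild-type myoblasts, 1 rose and 2 fell in MuSK-null myoblasts, none passed in wild-type myotubes, and 1 rose and 4 fell in MuSK-null myotubes. The part of these marker changes in the members' changes was not tested.

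**Figure D1:**
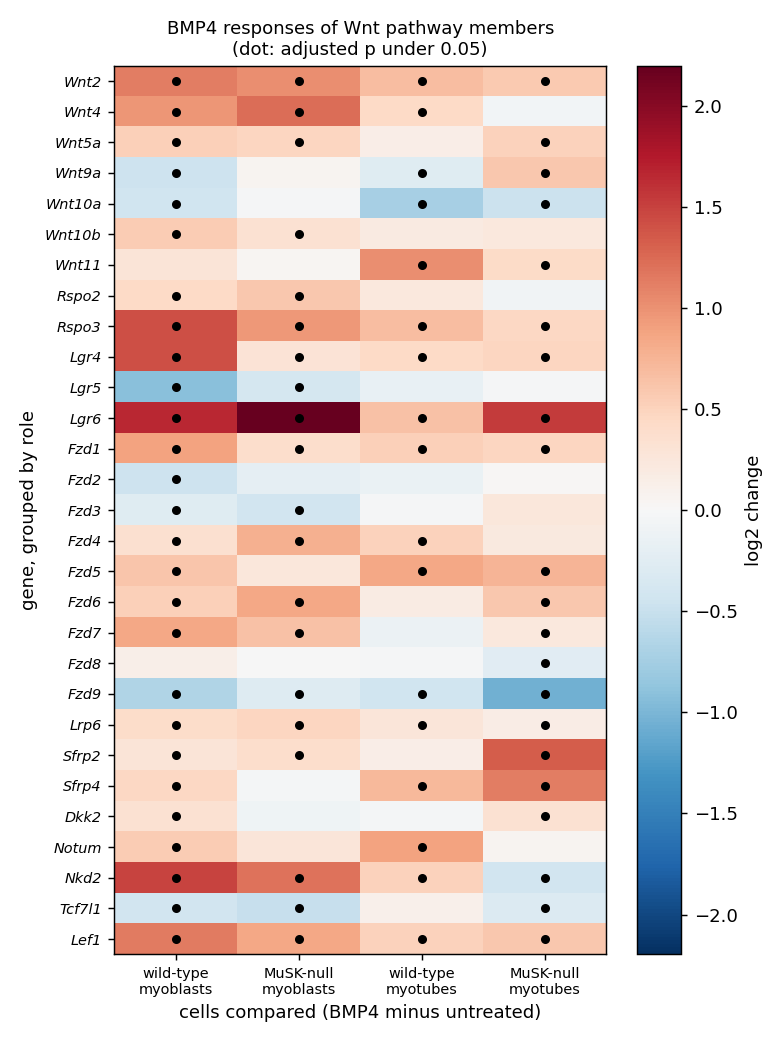
Log2 change after BMP4 (colour) of the 29 members called in at least 1 of the 4 kinds of cells, in rows by role and columns by kind of cell, with a dot where the adjusted p was under 0.05. The rows of Wnt2, Rspo3, Lgr4, Lgr6, Fzd1, Lrp6 and Lef1 are red with 4 dots, and that of Fzd9 is blue with 4 dots.

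Among the ligands Wnt2 rose in all 4 kinds of cells, Wnt4 in 3 and Wnt5a in 3. Wnt2, a ligand of the beta-catenin branch, read 7.13, 7.30 and 7.06 on the untreated and 8.15, 8.38 and 8.32 on the treated arrays of wild-type myoblasts. In MuSK-null myoblasts it read 6.85, 6.89 and 6.98 untreated and 7.82, 8.07 and 7.90 treated. The rises were 1.12 (SE 0.086, adjusted p = 1.46e-09) and 1.03 (SE 0.086, adjusted p = 7.97e-09), and their difference was -0.092 with a 95% interval from -0.34 to 0.16 (adjusted p = 0.927). In myotubes Wnt2 read 6.87, 6.85 and 6.90 untreated and 7.49, 7.64 and 7.52 treated in wild type, and 6.86, 6.73 and 6.78 untreated and 7.31, 7.24 and 7.55 treated in MuSK-null cells. These rises of 0.68 and 0.58 were smaller than in myoblasts by 0.44 (SE 0.12, adjusted p = 0.0447) in wild type and 0.45 (SE 0.12, adjusted p = 0.0241) in MuSK-null cells, but leaving out 1 array in turn ended these calls for 9 of 12 arrays (adjusted p from 0.0211 to 0.135) and 6 of 12 arrays (adjusted p from 0.00489 to 0.0797).

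Wnt4, a ligand of kidney and reproductive development that is also made in muscle, rose in 3 kinds of cells and did not pass the test in MuSK-null myotubes. In wild-type myotubes it read 9.08, 8.96 and 9.19 untreated and 9.50, 9.54 and 9.50 treated, a rise of 0.43 (SE 0.076, adjusted p = 0.000398). In MuSK-null myotubes it read 8.50, 8.39 and 8.53 untreated and 8.44, 8.36 and 8.45 treated, so the arms overlapped and the change was -0.059 (adjusted p = 0.769). The difference between these responses was -0.49 (SE 0.11, adjusted p = 0.00954). In myoblasts the rise was 0.98 (SE 0.076, adjusted p = 2.01e-09) in wild type, from 8.83, 9.08 and 8.95 to 9.93, 9.78 and 10.08. It was 1.22 (SE 0.076, adjusted p = 8.18e-11) in MuSK-null cells, from 8.18, 8.30 and 8.18 to 9.45, 9.43 and 9.43. Within MuSK-null cells the myotube response was lower than the myoblast response by 1.28 (SE 0.11, adjusted p = 3.38e-08). A second Wnt4 probe set (10509273) changed by 0.61, 1.19, 0.48 and -0.07 in wild-type myoblasts, MuSK-null myoblasts, wild-type myotubes and MuSK-null myotubes, the same signs as for the set used here (10509267). The sets differed in the comparison of untreated lines, given with the other line differences.

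Wnt11, a ligand that signals without beta-catenin and binds MuSK, rose in myotubes of both lines. It read 8.05, 8.16 and 8.26 in untreated and 9.35, 9.04 and 9.13 in treated wild-type myotubes, a rise of 1.02 (SE 0.11, adjusted p = 4.39e-07). In MuSK-null myotubes it read 8.56, 8.70 and 8.54 untreated and 8.99, 8.85 and 9.23 treated, a rise of 0.42 (SE 0.11, adjusted p = 0.00903); the call was lost for 1 of 6 arrays (adjusted p from 0.00481 to 0.0777), replicate 3 of the BMP4-treated MuSK-null myotubes. The treated levels of the 2 lines overlapped, and the smaller response of MuSK-null cells (by 0.60 (SE 0.15, adjusted p = 0.027)) went with an untreated level that was higher by 0.45 (SE 0.11, adjusted p = 0.00169). That difference of responses was lost on leaving out 6 of 12 arrays (adjusted p from 0.00974 to 0.0967), and a fit of only the 4 groups involved gave an adjusted p of 0.0512. In wild-type myoblasts Wnt11 read 7.38, 7.44 and 7.10 untreated and 7.56, 7.54 and 7.68 treated, arms that did not overlap but differed by 0.29 (adjusted p = 0.0948); with the 4 jointly deviating arrays as a block the adjusted p was 0.0447. In MuSK-null myoblasts it read 7.03, 7.30 and 7.21 untreated and 7.21, 7.35 and 7.11 treated, a change of 0.045 (adjusted p = 0.908). The wild-type response was larger in myotubes than in myoblasts by 0.73 (SE 0.15, adjusted p = 0.00522).

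Wnt9a, a ligand of joint and limb development, changed in opposite directions in myotubes of the 2 lines. In wild-type myotubes it read 10.24, 10.05 and 10.32 untreated and 9.95, 9.98 and 9.88 treated, a fall by 0.27 (SE 0.084, adjusted p = 0.0486) that was lost on leaving out 5 of 6 arrays (adjusted p from 0.0166 to 0.22). In MuSK-null myotubes it read 9.77, 9.93 and 9.85 untreated and 10.38, 10.29 and 10.65 treated, a rise of 0.59 (SE 0.084, adjusted p = 2.22e-05). The responses differed by 0.86 (SE 0.12, adjusted p = 9.14e-05), a call kept on leaving out each array in turn. In myoblasts Wnt9a fell by 0.46 (SE 0.084, adjusted p = 0.000442) in wild type, and its change was 0.054 (adjusted p = 0.847) in MuSK-null cells. The myoblast responses differed by 0.51 (SE 0.12, adjusted p = 0.0181), which was lost without the 4 jointly deviating arrays (0.44, adjusted p = 0.241), and dropping single arrays ended it for 4 of 12 arrays (adjusted p from 0.0123 to 0.061).

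Wnt10a, a ligand of ectodermal appendages, fell by 0.43 in wild-type myoblasts, 0.72 in wild-type and 0.47 in MuSK-null myotubes, with -0.026 (adjusted p = 0.939) in MuSK-null myoblasts. Wnt10b, which restrains adipogenesis, rose by 0.57 in wild-type and 0.33 in MuSK-null myoblasts, the latter lost on leaving out 3 of 6 arrays (adjusted p from 0.00529 to 0.0838). Wnt5a, the main ligand of the Ror branch, rose by 0.53 and 0.47 in wild-type and MuSK-null myoblasts and by 0.51 in MuSK-null myotubes, with 0.15 (adjusted p = 0.451) in wild-type myotubes. The other 12 ligands (Wnt1, Wnt2b, Wnt3, Wnt3a, Wnt5b, Wnt6, Wnt7a, Wnt7b, Wnt8a, Wnt8b, Wnt9b and Wnt16) were called in none of the 4 responses.

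**Figure D2:**
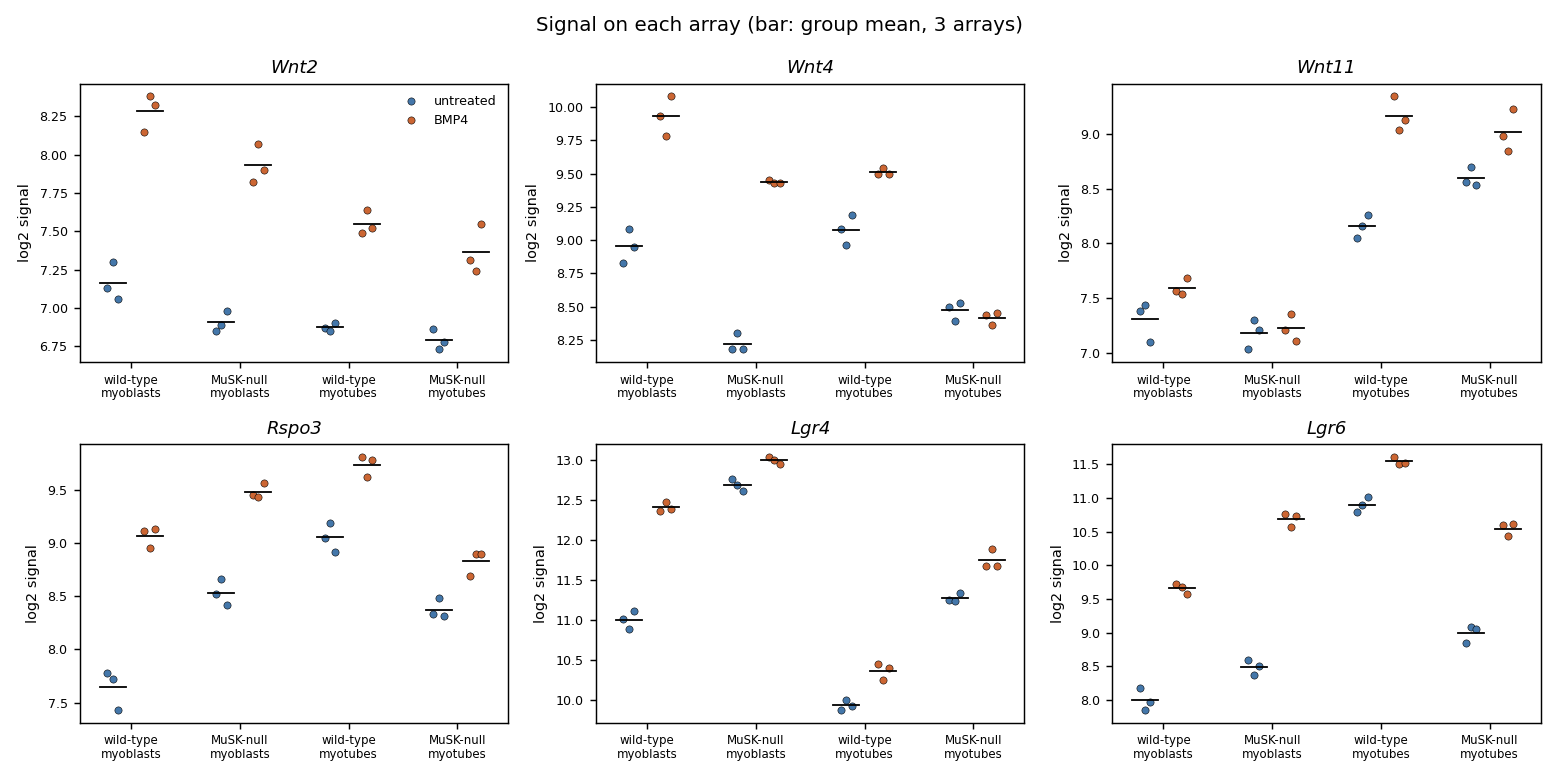
Log2 signal on each of 3 arrays per group for Wnt2, Wnt4, Wnt11, Rspo3, Lgr4 and Lgr6, untreated in blue and BMP4-treated in orange, with a bar at the group mean. Treated points lie above untreated points for Wnt2, Rspo3, Lgr4 and Lgr6 in all 4 kinds of cells, while the Wnt4 points of MuSK-null myotubes overlap.

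The R-spondin axis responded at the level of ligand and receptor. Lgr6, an R-spondin receptor that marks stem cells of skin, read 8.18, 7.85 and 7.97 in untreated and 9.73, 9.68 and 9.57 in treated wild-type myoblasts, a rise of 1.66 (SE 0.089, adjusted p = 5.7e-12). In MuSK-null myoblasts it read 8.59, 8.37 and 8.51 untreated and 10.76, 10.57 and 10.74 treated, a rise of 2.20 (SE 0.089, adjusted p = 1.11e-13). The response in MuSK-null myoblasts was larger by 0.54 (SE 0.13, adjusted p = 0.0188), but that call was lost on leaving out 5 of 12 arrays (adjusted p from 0.00857 to 0.0707), and a fit of only the 4 groups involved gave an adjusted p of 0.0611. Wild-type myotubes read 10.80, 10.89 and 11.01 untreated and 11.61, 11.51 and 11.52 treated, and MuSK-null myotubes 8.85, 9.09 and 9.06 untreated and 10.60, 10.43 and 10.61 treated. The rise of 1.54 in MuSK-null myotubes exceeded that of 0.65 in wild type by 0.89 (SE 0.13, adjusted p = 0.000109), yet the treated MuSK-null arrays stayed below the untreated wild-type arrays. Myotubes responded less than myoblasts, by 1.01 (SE 0.13, adjusted p = 2.58e-05) in wild type and 0.65 (SE 0.13, adjusted p = 0.00151) in MuSK-null cells. Lgr6 was called in each of the 13 contrasts tested.

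Lgr4, the broadly expressed R-spondin receptor, read 11.01, 10.89 and 11.11 untreated and 12.36, 12.48 and 12.39 treated in wild-type myoblasts, a rise of 1.41 (SE 0.074, adjusted p = 3.57e-12). In MuSK-null myoblasts it read 12.76, 12.69 and 12.62 untreated and 12.95 to 13.04 treated, a rise of 0.31 (SE 0.074, adjusted p = 0.00824) that was lost for 1 of 6 arrays (adjusted p from 0.0119 to 0.0538), replicate 3 of the untreated MuSK-null myoblasts. The response in MuSK-null myoblasts was smaller by 1.11 (SE 0.10, adjusted p = 6.12e-07), and it started from a level above that of treated wild-type cells. In myotubes Lgr4 rose by 0.44 in wild type and 0.48 in MuSK-null cells, a difference of 0.041 (adjusted p = 0.915). Lgr5, a stem cell marker and a target of beta-catenin, moved the other way in myoblasts. It went from 9.14, 8.90 and 9.05 to 8.27, 8.17 and 7.88 in wild type, a fall by 0.92 (SE 0.091, adjusted p = 9.12e-08), and from 7.76, 7.63 and 7.75 to 7.29, 7.23 and 7.46 in MuSK-null cells, a fall by 0.39 (SE 0.091, adjusted p = 0.0063). The myotube changes were -0.17 (adjusted p = 0.327) and -0.033 (adjusted p = 0.911).

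Rspo3, a secreted ligand of the Lgr receptors, read 7.78, 7.72 and 7.43 untreated and 9.11, 8.95 and 9.13 treated in wild-type myoblasts, a rise of 1.42 (SE 0.095, adjusted p = 1.49e-10). It went from 8.52, 8.66 and 8.42 to 9.45, 9.43 and 9.57 in MuSK-null myoblasts, a rise of 0.95 (SE 0.095, adjusted p = 1.39e-07). In myotubes the rises were 0.69 in wild type and 0.45 in MuSK-null cells. No overlap was seen between treated and untreated arrays in any of the 4 kinds of cells, and the responses of the lines differed by -0.47 (adjusted p = 0.0685) in myoblasts and -0.23 (adjusted p = 0.477) in myotubes. The wild-type response was smaller in myotubes by 0.74 (SE 0.13, adjusted p = 0.00171). Rspo2 rose by 0.43 in wild-type myoblasts, lost on leaving out 3 of 6 arrays (adjusted p from 0.00498 to 0.0842), and by 0.59 in MuSK-null myoblasts, with 0.23 (adjusted p = 0.282) and -0.077 (adjusted p = 0.807) in wild-type and MuSK-null myotubes. Its means lay below 6.34, the lower quartile of gene means, in untreated wild-type myoblasts and in all groups of myotubes. Rspo1 and Rspo4 were called in none of the 13 contrasts.

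Of 14 receptors and coreceptors, 6 rose and 3 fell in wild-type myoblasts (11% of all genes called), 5 rose and 2 fell in MuSK-null myoblasts (8.42%), 4 rose and 1 fell in wild-type myotubes (8.77%), and 5 rose and 2 fell in MuSK-null myotubes (11.3%). Fzd1 went from 10.60, 10.75 and 10.67 to 11.48, 11.66 and 11.53 in wild-type and from 10.55, 10.49 and 10.51 to 10.81, 10.92 and 10.94 in MuSK-null myoblasts. These rises of 0.88 and 0.38 differed by -0.51 (SE 0.082, adjusted p = 0.000648), and in myotubes Fzd1 rose by 0.52 and 0.47. Fzd4, the receptor of the eye vasculature that also binds norrin, went from 9.30, 9.32 and 9.23 to 9.98, 10.11 and 10.08 in MuSK-null myoblasts, a rise of 0.78 (SE 0.075, adjusted p = 8.83e-08). Its rise was 0.36 in wild-type myoblasts and 0.51 in wild-type myotubes, and its change was 0.21 (adjusted p = 0.0779) in MuSK-null myotubes. Fzd6, a receptor of planar polarity, rose by 0.86 in MuSK-null myoblasts, 0.52 in wild-type myoblasts and 0.60 in MuSK-null myotubes, with 0.18 (adjusted p = 0.0636) in wild-type myotubes. The myotube responses of Fzd6 differed by 0.42 (SE 0.084, adjusted p = 0.00463).

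Fzd7, a receptor of satellite cells, rose by 0.85 and 0.64 in wild-type and MuSK-null myoblasts, but changed by -0.14 (adjusted p = 0.32) in wild-type myotubes, a difference between the stages of -0.98 (SE 0.10, adjusted p = 2.52e-06). In MuSK-null myotubes its change of 0.23 was called, and that call was lost on leaving out 5 of 6 arrays (adjusted p from 0.0469 to 0.23). Fzd5 rose in both kinds of myotubes, by 0.86 in wild type and 0.75 in MuSK-null cells, and by 0.60 in wild-type myoblasts. Fzd9 read 9.93, 10.12 and 9.95 untreated and 8.95, 8.98 and 8.92 treated in MuSK-null myotubes, a fall by 1.05 (SE 0.087, adjusted p = 8.75e-09). In wild-type myotubes it fell by 0.43, less than in MuSK-null cells, with a difference of -0.62 (SE 0.12, adjusted p = 0.00432). In myoblasts Fzd9 fell by 0.67 in wild type and by 0.29 in MuSK-null cells; the latter was lost on leaving out 5 of 6 arrays (adjusted p from 0.00209 to 0.233), and with replicate numbers as a block in a fit of the 2 compared groups its adjusted p was 0.164. Fzd2 fell by 0.46 in wild-type myoblasts. Fzd3 fell by 0.42 in MuSK-null and by 0.27 in wild-type myoblasts, the latter lost on leaving out 4 of 6 arrays (adjusted p from 0.0393 to 0.196) and without the 4 jointly deviating arrays (adjusted p = 0.187). Fzd8 fell by 0.26 in MuSK-null myotubes, lost on leaving out 4 of 6 arrays (adjusted p from 0.0178 to 0.197). The coreceptor Lrp6 rose by 0.41, 0.47 and 0.26 in wild-type myoblasts, MuSK-null myoblasts and wild-type myotubes, and by 0.17 in MuSK-null myotubes, where the call was lost on leaving out 5 of 6 arrays (adjusted p from 0.018 to 0.153). Its relative Lrp5 was called in none of the 4 responses, with changes from -0.043 to 0.13, and neither were Ror1, Ror2 or Fzd10.

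Of 10 secreted antagonists, 4 rose in wild-type myoblasts (5.21% of all genes did), 1 in MuSK-null myoblasts (3.89%), 2 in wild-type myotubes (4.4%) and 3 in MuSK-null myotubes (5.36%), and none was called lower. With 1 call of 10, the count in MuSK-null myoblasts is close to the share of all genes called there in either direction, 8.42%. Sfrp2, a soluble Wnt-binding protein, read 10.08, 10.14 and 10.15 untreated and 11.51, 11.43 and 11.44 treated in MuSK-null myotubes, a rise of 1.33 (SE 0.079, adjusted p = 3.18e-11). In wild-type myotubes it read 8.70, 8.60 and 9.01 untreated and 8.97, 8.89 and 8.89 treated, arms that overlapped, with a change of 0.15 (adjusted p = 0.328). The responses differed by 1.18 (SE 0.11, adjusted p = 5.17e-07). In myoblasts Sfrp2 rose by 0.29 in wild type, lost on leaving out 2 of 6 arrays (adjusted p from 0.022 to 0.0965), and by 0.39 in MuSK-null cells. Sfrp4 rose by 0.71 in wild-type and 1.12 in MuSK-null myotubes, going from 7.42, 7.33 and 7.06 to 8.35, 8.42 and 8.43 in the latter. In wild-type myoblasts Sfrp4 rose by 0.45, lost on leaving out 5 of 6 arrays (adjusted p from 0.0235 to 0.169), and Notum by 0.55. Notum, an enzyme that removes the lipid from Wnts, went from 7.25, 7.41 and 7.23 to 8.24, 8.34 and 7.97 in wild-type myotubes, a rise of 0.89 (SE 0.11, adjusted p = 4.78e-06). In MuSK-null myotubes it read 7.08, 7.33 and 7.19 untreated and 7.34, 7.04 and 7.41 treated, with overlapping arms and a change of 0.063 (adjusted p = 0.847), and the responses differed by -0.82 (SE 0.16, adjusted p = 0.00269). Dkk2 rose by 0.34 in wild-type myoblasts, a call lost for 1 of 6 arrays (adjusted p from 0.00405 to 0.0594), replicate 1 of the untreated wild-type myoblasts, and by 0.33 in MuSK-null myotubes. Dkk1, Dkk4 and Sfrp5 were called in none of the 13 contrasts.

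Inside the cell, Nkd2, a dishevelled-binding inhibitor, showed a direction that depended on the cells. It read 9.06, 8.93 and 9.21 untreated and 10.59, 10.75 and 10.33 treated in wild-type myoblasts, a rise of 1.49 (SE 0.10, adjusted p = 1.18e-10). In MuSK-null myoblasts it went from 7.61, 7.47 and 7.57 to 8.82, 8.54 and 8.85, a rise of 1.19 (SE 0.10, adjusted p = 6.2e-09). Wild-type myotubes read 7.48, 7.38 and 7.53 untreated and 8.08, 7.89 and 7.94 treated, a rise of 0.51 (SE 0.10, adjusted p = 0.00108). In MuSK-null myotubes Nkd2 went from 8.74, 8.78 and 8.69 to 8.34, 8.23 and 8.41, a fall by 0.41 (SE 0.10, adjusted p = 0.00518). The myotube responses differed by -0.92 (SE 0.14, adjusted p = 0.000235), and this was the only member called upward in 3 responses and downward in the fourth. Axin2, a scaffold protein whose gene is a common readout of beta-catenin activity, did not pass in any response, with changes of 0.05 (adjusted p = 0.938), 0.20 (adjusted p = 0.483), -0.02 (adjusted p = 0.964) and 0.068 (adjusted p = 0.862) in wild-type myoblasts, MuSK-null myoblasts, wild-type myotubes and MuSK-null myotubes. Axin1, Nkd1, Znrf3 and Rnf43 did not pass in any of the 4 either.

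Of the transcription factors, Lef1, the member of the family most often induced by its own pathway, rose in all 4 kinds of cells. It went from 8.32, 8.12 and 8.12 to 9.43, 9.42 and 9.14 in wild-type and from 7.26, 7.31 and 7.42 to 8.27, 7.97 and 8.30 in MuSK-null myoblasts, rises of 1.14 (SE 0.10, adjusted p = 1.72e-08) and 0.85 (SE 0.10, adjusted p = 1.88e-06). In myotubes the arrays read 7.18, 6.97 and 7.18 untreated and 7.64, 7.58 and 7.65 treated in wild type, and 7.81, 7.93 and 7.76 untreated and 8.43, 8.25 and 8.61 treated in MuSK-null cells, rises of 0.51 and 0.59. The difference between the lines' responses did not pass, at -0.29 (adjusted p = 0.503) in myoblasts and 0.081 (adjusted p = 0.869) in myotubes. Tcf7l1, mostly a repressor, fell by 0.41 in wild-type and 0.50 in MuSK-null myoblasts and by 0.31 in MuSK-null myotubes, with 0.11 (adjusted p = 0.434) in wild-type myotubes. Tcf7l2 was called in none of the 4.

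**Figure D3:**
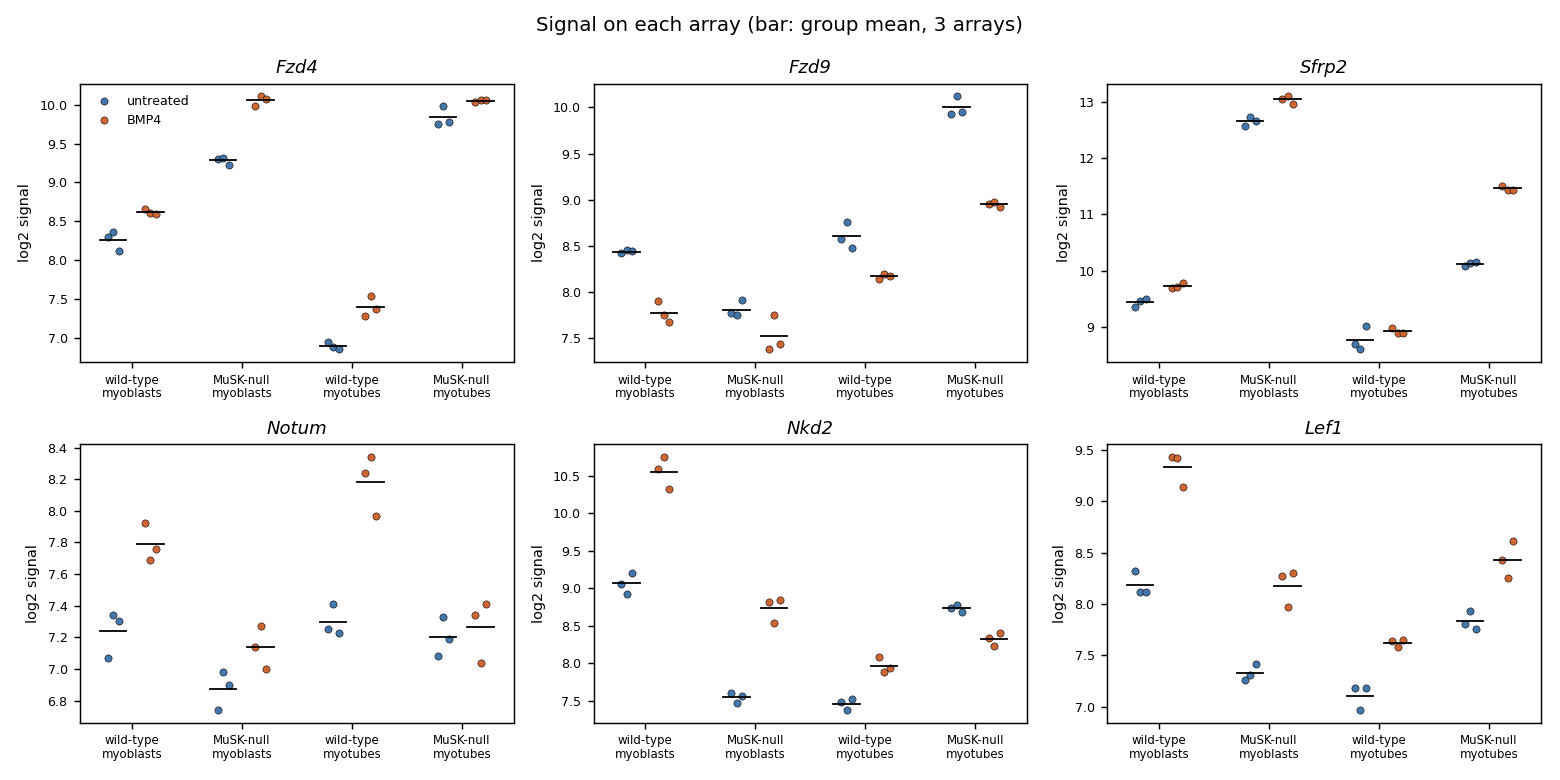
Log2 signal on each of 3 arrays per group for Fzd4, Fzd9, Sfrp2, Notum, Nkd2 and Lef1, untreated in blue and BMP4-treated in orange, with a bar at the group mean. Treated Nkd2 arrays lie above untreated ones except in MuSK-null myotubes, where they lie below, and Sfrp2 arrays of MuSK-null myotubes lie between 10.08 and 10.15 untreated and between 11.43 and 11.51 treated.

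Counted over all members, the response differed between the lines for 7 of 59 members in myoblasts (11.9%, against 2.39% of all genes, 1.17% higher and 1.22% lower) and for 10 in myotubes (16.9%, against 3.21%, 1.5% higher and 1.71% lower). In myoblasts Lgr4 and Fzd1 responded less in MuSK-null cells, and Lgr6, Lgr5, Wnt9a, Fzd4 and Fzd6 had higher values of the change there. For Lgr5 the higher value was a smaller fall. The myoblast count fell to 4 without replicate 1 of the untreated wild-type myoblasts, to 3 without replicate 3 of the treated wild-type myoblasts, to 4 without replicate 2 of the untreated MuSK-null myoblasts and to 2 without replicate 3 of the treated MuSK-null myoblasts. In a fit of only the 4 groups involved it was 4. The differences of Fzd4 and Fzd6 had adjusted p = 0.29 and 0.216 without the 4 jointly deviating arrays. In myotubes Sfrp2, Lgr6, Wnt9a and Fzd6 were higher and Nkd2, Notum, Fzd9, Wnt11, Wnt4 and Tcf7l1 lower in their response in MuSK-null cells; that of Tcf7l1 (-0.42 (SE 0.10, adjusted p = 0.0175)) was lost on leaving out 2 of 12 arrays (adjusted p from 0.0117 to 0.0602). Lgr6, Wnt9a and Fzd6 were called higher in both stages. Between stages, 13 members differed in response in wild-type cells (22.0%, against 3.42% of all genes, 1.92% higher and 1.5% lower), 10 of them lower in myotubes, and 17 in MuSK-null cells (28.8%, against 6.16%, 3.24% higher and 2.92% lower), 11 of them lower in myotubes. A difference of at least 0.5 left 10 in MuSK-null cells, against 3.76% of all genes.

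Without BMP4 the lines already differed in many members, and for several the direction turned with stage. In myoblasts 12 members were higher and 16 lower in MuSK-null cells, 47.5% against 31.3% of all genes (15.3% higher, 16% lower). In myotubes 17 were higher and 10 lower, 45.8% against 37.4% of all genes (19.4% higher, 18% lower). Muscle markers were lower in MuSK-null myoblasts (9.67 to 9.72 as the mean signal per array, against 11.63 to 11.67 in wild type; 11 of 13 lower and 1 higher), and were nearer in myotubes (12.79 to 12.80 against 13.01 to 13.06; 9 lower and 2 higher). Fibroblast markers were higher in MuSK-null cells, at 9.95 to 10.01 against 9.07 to 9.19 in myoblasts (6 of 8 higher and 1 lower) and 10.37 to 10.50 against 9.18 to 9.31 in myotubes (7 higher and 1 lower). The part of these marker shifts in the members' differences was not tested.

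The widest gaps in myoblasts were in secreted antagonists. Sfrp1 read 6.99, 6.70 and 7.32 in wild-type and 10.57, 10.38 and 10.41 in MuSK-null myoblasts, higher by 3.45 (SE 0.13, adjusted p = 4.7e-16). In myotubes it read 7.05, 7.12 and 6.59 in wild type and 8.15, 8.22 and 8.10 in MuSK-null cells, higher by 1.24 (SE 0.13, adjusted p = 3.58e-08). Sfrp2 read 9.35, 9.45 and 9.50 in wild-type and 12.57, 12.74 and 12.66 in MuSK-null myoblasts, higher by 3.23 (SE 0.079, adjusted p = 4.04e-19), and by 1.36 (SE 0.079, adjusted p = 1.98e-12) in myotubes. The gap between the lines was narrower in myotubes for both genes, with differences of stage changes of -2.21 and -1.87.

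Receptors split by member. Fzd4 was higher in MuSK-null cells by 1.02 in myoblasts and by 2.95 (SE 0.075, adjusted p = 8.77e-19) in myotubes, where it read 9.75, 9.99 and 9.78 against 6.94, 6.88 and 6.85 in wild type. Fzd2 was higher by 0.41 and 0.86 and Lrp5 by 0.55 and 1.39 in myoblasts and myotubes. Fzd3 was lower in MuSK-null cells by 2.02 (SE 0.083, adjusted p = 3.55e-15) in myoblasts and 1.62 (SE 0.083, adjusted p = 2.13e-13) in myotubes, and Ror1 by 0.80 and 0.69. Lgr4 was higher by 1.69 and 1.34. Rspo2 was higher in MuSK-null myoblasts, by 1.43 (SE 0.11, adjusted p = 6.81e-10), against 0.26 (adjusted p = 0.0855) in myotubes, and the difference of stage changes was -1.17 (SE 0.16, adjusted p = 4.88e-06). It read 7.90, 7.70 and 7.34 in MuSK-null and 6.09 to 6.42 in wild-type myoblasts. In myotubes it read 5.83 to 6.09 in wild type and 6.09 to 6.28 in MuSK-null cells. Outside MuSK-null myoblasts the untreated group means lay below 6.34, the lower quartile of gene means, so background may limit these differences.

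Axin2, Lgr5 and Lef1, each known to be induced by beta-catenin signalling, and the inhibitor Nkd2 were lower in MuSK-null myoblasts and higher in MuSK-null myotubes. They were picked after their values were seen, and a separate list of often used targets was mixed. In the MuSK-null line, 2 of its 13 measured genes had higher and 5 had lower signals in myoblasts, against 15.3% and 16% of all genes. In myotubes 4 had higher and 4 lower signals, against 19.4% and 18% of all genes. The 4 lower in myotubes were Ccnd1 (by 2.22), Ccn5 (1.27), Myc (0.49) and Ccn1 (0.46). The 4 higher were Ccn4, Tnfrsf19, Rhou and Msx2. MuSK-null myotubes read 11.32 to 11.46 for Ccn4 and 9.96 to 10.08 for Tnfrsf19, against 10.48 to 10.52 and 9.41 to 9.57 in wild type. For Rhou they read 8.80 to 8.91 against 8.42 to 8.64, and for Msx2 7.09 to 7.32 against 6.69 to 6.86. Axin2 read 8.68, 8.47 and 8.61 in wild-type and 7.31, 7.82 and 7.71 in MuSK-null myoblasts, lower by 0.97 (SE 0.13, adjusted p = 2.55e-06). In myotubes it read 8.38, 8.45 and 8.43 in wild type and 9.13, 9.40 and 9.33 in MuSK-null cells, higher by 0.87 (SE 0.13, adjusted p = 1.04e-05). Lgr5 was lower by 1.31 (SE 0.091, adjusted p = 5.32e-11) in MuSK-null myoblasts and higher by 2.09 (SE 0.091, adjusted p = 1.21e-14) in MuSK-null myotubes, where it read 9.64, 9.61 and 9.57 against 7.51, 7.46 and 7.59. Nkd2 was lower by 1.52 and then higher by 1.27, and Lef1 lower by 0.86 and then higher by 0.72. Nkd1 was -0.017 (adjusted p = 0.928) in myoblasts and higher by 0.60 in myotubes. Znrf3 was lower by 0.49 in myoblasts, with 0.25 (adjusted p = 0.0623) in myotubes. Notum was lower by 0.36 in myoblasts, lost on leaving out 3 of 6 arrays (adjusted p from 0.00636 to 0.0786), with -0.10 (adjusted p = 0.543) in myotubes. The differences of stage changes were 3.40 (SE 0.13, adjusted p = 3.06e-15) for Lgr5, 2.79 (SE 0.14, adjusted p = 2.78e-13) for Nkd2, 1.84 (SE 0.19, adjusted p = 5.03e-08) for Axin2 and 1.58 (SE 0.14, adjusted p = 9.28e-09) for Lef1. Fzd9, not usually counted among such targets, crossed in the same direction, lower by 0.63 in MuSK-null myoblasts and higher by 1.40 in myotubes.

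Crossing also ran the other way. Lgr6 was higher in MuSK-null myoblasts by 0.49 and lower in MuSK-null myotubes by 1.90 (SE 0.089, adjusted p = 4.71e-14). Rspo3 was higher by 0.89 and then lower by 0.68. Among the ligands Wnt9a was lower in MuSK-null cells by 0.85 in myoblasts and 0.35 in myotubes. For Wnt4 the probe sets disagreed. The set used here was lower in MuSK-null cells by 0.74 in myoblasts and 0.60 in myotubes, while the second set differed by -0.15 in myoblasts and by 0.09, the other direction, in myotubes. Wnt5a differed in myotubes, 10.11, 10.24 and 10.07 in wild type against 8.84, 9.03 and 8.69 in MuSK-null cells, lower by 1.29 (SE 0.10, adjusted p = 1.49e-10), with 0.11 (adjusted p = 0.488) in myoblasts. Wnt11 was higher in MuSK-null myotubes, and its difference in myoblasts was -0.12 (adjusted p = 0.454).

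**Figure D4:**
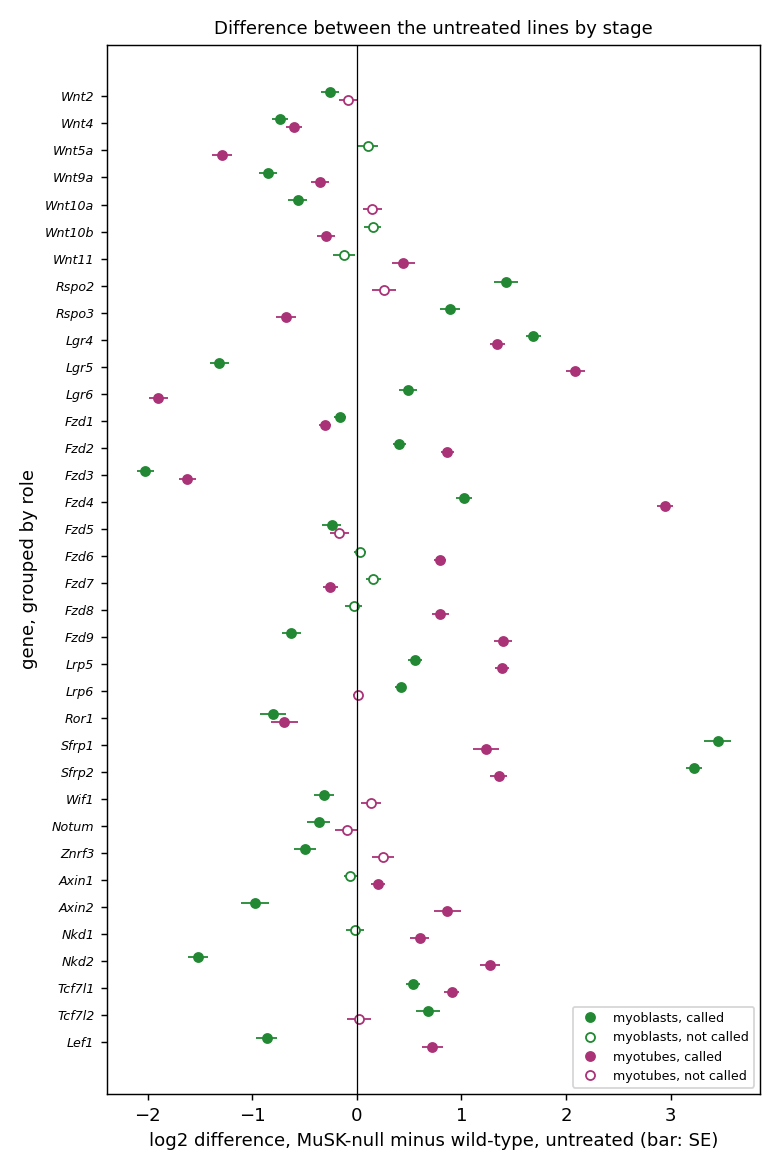
Difference in log2 signal between untreated MuSK-null and wild-type cells, with SE bars, for the 36 members called in myoblasts (green) or myotubes (purple); filled points have an adjusted p under 0.05. Green points of Lgr5, Fzd9, Axin2, Nkd2 and Lef1 lie left of 0 and purple points right of it, while Lgr6 and Rspo3 show the opposite.

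In untreated wild-type cells the members differed between the stages about as often as other genes. Of the members 10 were higher and 17 lower in myotubes (45.8%, against 45% of all genes, 20.3% higher and 24.7% lower). In MuSK-null cells 21 were higher and 13 lower (57.6%, against 41.6%, 18.2% higher and 23.4% lower), and 30 members differed between the lines in their stage change (19 higher and 11 lower in MuSK-null cells, 50.8%, against 29.1%, 14.9% higher and 14.1% lower). Dkk3, a divergent Dickkopf protein, fell by 1.26 (SE 0.092, adjusted p = 5.97e-11) in wild type and 1.36 (SE 0.092, adjusted p = 1.68e-11) in MuSK-null cells, with a difference of -0.10 (adjusted p = 0.638). Wnt10a rose in both, from 8.34, 8.67 and 8.61 to 10.10, 9.89 and 10.05 in wild type and from 7.89, 8.14 and 7.89 to 10.18, 10.18 and 10.14 in MuSK-null cells, by 1.48 and 2.19. Wnt11 rose by 0.85 (SE 0.11, adjusted p = 4.21e-07) in wild-type and 1.42 (SE 0.11, adjusted p = 1.02e-10) in MuSK-null cells, more in the latter by 0.57 (SE 0.15, adjusted p = 0.00535). Wnt9a rose by 0.87 and 1.36, and Tcf7l1 fell by 1.62 and 1.25. Lgr6 rose by 2.90 (SE 0.089, adjusted p = 1.96e-17) in wild type against 0.51 (SE 0.089, adjusted p = 4.62e-05) in MuSK-null cells. Wnt5a rose by 1.06 in wild type and fell by 0.33 in MuSK-null cells; the fall was lost for 1 of 6 arrays (adjusted p from 0.00163 to 0.0578), replicate 3 of the untreated MuSK-null myotubes. Lgr5, Fzd4, Fzd8, Nkd2 and Lef1 fell in wild-type cells and rose in MuSK-null cells, Lgr5 by 1.51 and 1.89, Fzd4 by 1.37 and 0.56, Fzd8 by 0.46 and 0.37, Nkd2 by 1.60 and 1.19, and Lef1 by 1.08 and 0.51. Axin2 rose by 1.67 (SE 0.13, adjusted p = 2.26e-10) in MuSK-null cells, with -0.17 (adjusted p = 0.336) in wild type. In MuSK-null cells Sfrp1 fell by 2.30 and Sfrp2 fell by 2.53.

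**Figure D5:**
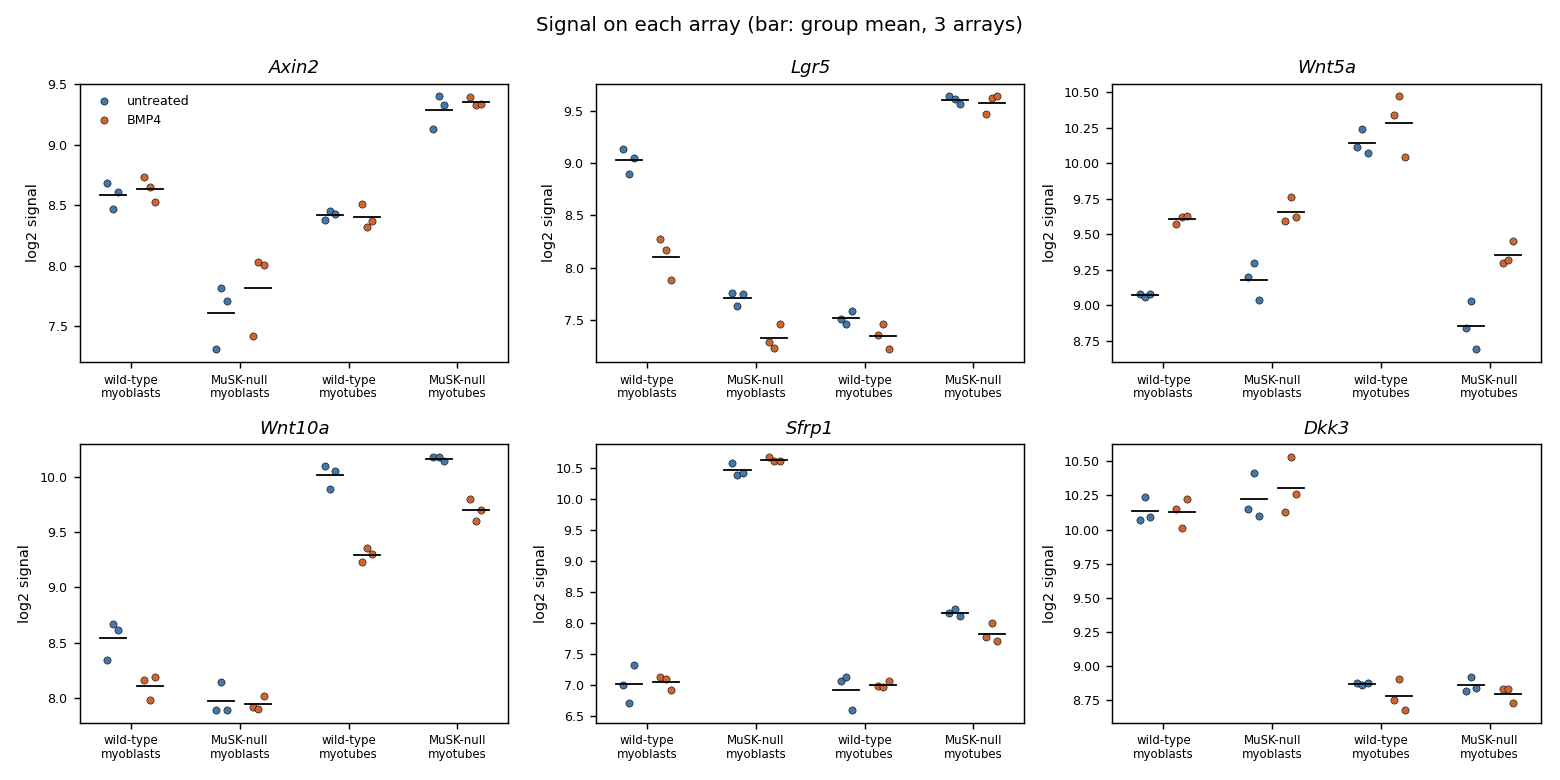
Log2 signal on each of 3 arrays per group for Axin2, Lgr5, Wnt5a, Wnt10a, Sfrp1 and Dkk3, untreated in blue and BMP4-treated in orange, with a bar at the group mean. Untreated Axin2 and Lgr5 arrays of MuSK-null myotubes lie above those of the other 3 kinds of untreated cells, and Dkk3 is lower in myotubes of both lines.

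Other genes of the pathway changed in both directions. Of 62 further genes listed by symbol 59 were measured, and 13 rose and 7 fell in wild-type myoblasts (11% of all genes called), 9 rose and 6 fell in MuSK-null myoblasts (8.42%), 7 rose and 6 fell in wild-type myotubes (8.77%), and 13 rose and 7 fell in MuSK-null myotubes (11.3%). The 13 measured genes on the list of often used Wnt targets were mixed. In myoblasts 5 rose and 2 fell in wild type (11% of all genes called), and 4 rose and 1 fell in MuSK-null cells (8.42%). Those that rose were Rhou, Msx1, Msx2, Fst and Ccn1 in wild type, and the same without Msx1 in MuSK-null cells. Msx2 read 7.86, 7.73 and 7.64 untreated and 9.62, 9.92 and 9.83 treated in wild-type myoblasts. Whether these rises came from BMP4 directly or through Wnt signals was not tested. In myotubes 2 rose and 3 fell in wild type (8.77%), and 6 rose and 2 fell in MuSK-null cells (11.3%). On that list Rhou, a small GTPase, rose in all 4 kinds of cells, by 0.67, 0.65, 0.61 and 0.64 in wild-type myoblasts, MuSK-null myoblasts, wild-type myotubes and MuSK-null myotubes. Ccn1, a matrix protein also listed, rose in all 4 too, by 0.34 to 0.62. Its relative Ccn4, also listed, fell in all 4, by 0.28 to 0.60, and the listed Tnfrsf19 fell in wild-type myoblasts and both kinds of myotubes. Daam1, a formin of the planar polarity branch, fell in all 4, by 0.41 to 0.79, and its relative Daam2 fell by 1.35 and 0.97 in wild-type myoblasts and myotubes. The corepressors Tle1, Tle2, Tle3 and Tle4 rose in wild-type myoblasts, by 0.32, 0.32, 0.26 and 0.49. Tle1 was also called higher in MuSK-null myoblasts and wild-type myotubes, and Tle3 in both kinds of myotubes. In wild-type myotubes Tle3 read 10.56, 10.56 and 10.62 untreated and 11.49, 11.51 and 11.44 treated. Kremen1, a receptor of Dkk proteins, rose by 0.63 in wild-type myoblasts and 0.73 in wild-type myotubes, and the MuSK-null responses were lower by 0.64 (SE 0.084, adjusted p = 5.2e-05) in myoblasts and 0.65 (SE 0.084, adjusted p = 3.56e-05) in myotubes. Sostdc1, an antagonist of BMPs and Wnts, rose by 1.20 in MuSK-null myotubes against -0.081 (adjusted p = 0.817) in wild type, a difference of 1.28 (SE 0.18, adjusted p = 0.000114). Lrp4, the agrin receptor that pairs with MuSK, fell by 0.29 in wild-type and 0.88 in MuSK-null myoblasts. Frzb fell by 0.39 in wild-type myoblasts and rose by 0.33 in MuSK-null myoblasts. Beta-catenin itself, Ctnnb1, was called in MuSK-null myotubes, at 0.23, and in no other response.

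Counting all 13 contrasts, 41 of 59 members were called at least once, as were 64.7% of all genes, and 18 in none. The 18 were Dkk1, Dkk4, Fzd10, Rnf43, Rspo1, Rspo4, Sfrp5 and 11 ligands (Wnt1, Wnt2b, Wnt3, Wnt3a, Wnt5b, Wnt6, Wnt7a, Wnt8a, Wnt8b, Wnt9b and Wnt16). Their group means spanned at most 0.40 log2 units over the 8 groups, from 0.11 for Dkk1 and Wnt1 to 0.40 for Wnt3a. Whether these probe sets lay above background was not tested, so their flat signal does not show that the genes kept a level.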

How the data were processed

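RNA of 24 samples was measured on Affymetrix gene arrays, 3 arrays in each of 8 groups assigned from the sample titles. The deposited values are log2 signals, 1 per probe set and array, which the authors had put on a scale with close array medians; the submitters' processing notes name Affymetrix Expression Console and Partek, and how each was set is not stated in those notes. They ranged from 2.50 to 15.03 and were used as deposited, with no further scaling.

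Of 35556 probe sets, 21789 carried 1 gene symbol, 1621 several and 12146 none. Of several probe sets of a gene (999 genes), the one with the highest mean over all arrays was kept, giving 19938 genes. All 59 members were found in the RefSeq gene table. A limma 3.58.1 model (R 4.3.3) with a mean per group was fitted to all genes and arrays (16 residual degrees of freedom). Each of 13 contrasts had its p-values adjusted by Benjamini-Hochberg over all genes. All adjusted p-values come from this model unless another fit is named. The script was tested on simulated data with known changes before use. The p-values reflect the spread among these samples only, and that spread may be technical.

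Per-array values and full statistics were given for Wnt11, Lgr6 and the called members with the largest changes whose groups did not overlap, up to 8 in each direction per response and 6 per other contrast, and other members were summarised or named by role. Some falls and smaller changes are given by size alone. The members, lists and rules were chosen with earlier results of these data known.

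Replicate numbers were checked for pairing by correlating deviations from group means. All 3 pairs exceeded 0.1 in MuSK-null myoblasts with and without BMP4 (0.12 to 0.46) and in untreated myoblasts of both lines (0.22 to 0.42), and not in the other 6 pairs of groups compared. Alternatives were another normalization, centring, a filter on dim genes, averaged probe sets, another variance estimate, a fit of the compared groups alone, a minimum change, blocks and leaving out each array.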

Additional observations from a re-analysis of the deposited data

Results flagged for a closer look

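The results below are differences between 2 changes under the same contrast that passed the interaction test of the limma model (adjusted p under 0.05), up to 6 in each direction per comparison, and Wnt11 and Lgr6 wherever they passed.

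Between the lines in myoblasts, the BMP4 response in MuSK-null minus wild-type cells was 0.54 for Lgr6, 0.53 (SE 0.13, adjusted p = 0.0244) for Lgr5, 0.51 for Wnt9a, 0.42 (SE 0.11, adjusted p = 0.0363) for Fzd4, 0.33 (SE 0.084, adjusted p = 0.0329) for Fzd6, -0.51 for Fzd1 and -1.11 for Lgr4. The Lgr5 difference was lost on leaving out 5 of 12 arrays (adjusted p from 0.011 to 0.0832), that of Fzd4 on leaving out 10 of 12 arrays (adjusted p from 0.0121 to 0.107) and that of Fzd6 on leaving out 11 of 12 arrays (adjusted p from 0.0425 to 0.0884). In myotubes the same difference was 1.18 for Sfrp2, 0.89 for Lgr6, 0.86 for Wnt9a, 0.42 for Fzd6, -0.42 for Tcf7l1, -0.49 for Wnt4, -0.60 for Wnt11, -0.62 for Fzd9, -0.82 for Notum and -0.92 for Nkd2.

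Between the stages, the response in myotubes minus myoblasts of the wild-type line was 0.75 (SE 0.13, adjusted p = 0.000979) for Lgr5, 0.73 for Wnt11, 0.52 (SE 0.10, adjusted p = 0.00233) for Tcf7l1, -0.63 (SE 0.14, adjusted p = 0.0111) for Lef1, -0.74 for Rspo3, -0.98 (SE 0.10, adjusted p = 3.95e-06) for Lgr4, -0.98 for Fzd7, -0.98 (SE 0.14, adjusted p = 0.00011) for Nkd2 and -1.01 for Lgr6. In the MuSK-null line it was 1.17 (SE 0.19, adjusted p = 0.000187) for Sfrp4, 0.95 (SE 0.11, adjusted p = 3.82e-06) for Sfrp2, 0.67 (SE 0.12, adjusted p = 0.000572) for Fzd3, 0.53 (SE 0.12, adjusted p = 0.00585) for Wnt9a, 0.50 (SE 0.13, adjusted p = 0.018) for Fzd5, 0.42 (SE 0.12, adjusted p = 0.0285) for Dkk2, -0.56 (SE 0.11, adjusted p = 0.00119) for Fzd4, -0.65 for Lgr6, -0.67 (SE 0.16, adjusted p = 0.0111) for Rspo2, -0.76 (SE 0.12, adjusted p = 0.000216) for Fzd9, -1.28 for Wnt4 and -1.60 (SE 0.14, adjusted p = 4.59e-08) for Nkd2. Those of Fzd5 and Dkk2 were lost on leaving out 4 of 12 arrays (adjusted p from 0.0167 to 0.0638) and 9 of 12 arrays (adjusted p from 0.00814 to 0.0968).

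The change from myoblasts to myotubes without BMP4, MuSK-null minus wild-type, was 3.40 for Lgr5, 2.79 for Nkd2, 2.02 (SE 0.12, adjusted p = 1.01e-11) for Fzd9, 1.93 (SE 0.11, adjusted p = 1.98e-12) for Fzd4, 1.84 for Axin2, 1.58 for Lef1 and 0.57 for Wnt11. It was -1.17 for Rspo2, -1.39 (SE 0.13, adjusted p = 2.7e-08) for Wnt5a, -1.57 (SE 0.13, adjusted p = 3.53e-09) for Rspo3, -1.87 for Sfrp2, -2.21 for Sfrp1 and -2.39 (SE 0.13, adjusted p = 9.44e-13) for Lgr6.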

How the results depend on the processing

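Counts of called members stayed within 1.5 times their value under quantile normalization, median centring, a filter on dim genes, averaged probe sets and trend with robust variance in all 13 contrasts. With the replicate number as a block in the fit of all arrays, the count was 28 against 27 in wild-type myoblasts and 27 against 28 between the untreated myoblast lines, and no other count moved by more than 1; the block in fits of the 2 paired comparisons alone ended 1 named call, that of Fzd9 in MuSK-null myoblasts. The least stable count was that of members whose response differed between the myoblast lines. It was 7, fell to 4 in a fit of only the 4 groups involved, and ranged from 2 to 6 on leaving out 1 array in turn. Asking for a change of at least 0.5 left 16 members in wild-type myoblasts, 10 in MuSK-null myoblasts, 10 in MuSK-null myotubes and 10 for the difference between stages in MuSK-null cells, where 17 had been called. No called result named here changed direction under the alternatives run. Values that had not passed could change sign on leaving out 1 array, such as Notum in MuSK-null myotubes (0.063, from -0.011 to 0.17).

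Median centring ended 5 named calls, Fzd3 in wild-type myoblasts (adjusted p = 0.0529), Wnt9a in wild-type myotubes (0.0604), Fzd8 in MuSK-null myotubes (0.0555), and the myoblast response differences of Fzd4 (0.0966) and Fzd6 (0.136); the cause was not tested. The jointly deviating arrays were chosen as an alternative after seeing the data. Left out, they ended 4 named calls, and as a block they added that of Wnt11 in wild-type myoblasts. No detection calls were used, so signal over background is unknown for dim probe sets.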
